A study of Homo sapiens with 32 samples.

Results

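The NRF2 pathway was followed through 9 genes in Caco-2 cells, a line of intestinal epithelial cells from a human colon tumour. They were chosen by name: the transcription factor gene NFE2L2, the gene of its inhibitor KEAP1 and 7 antioxidant genes that NRF2 is known to switch on (HMOX1, NQO1, GCLC, GCLM, TXNRD1, SRXN1 and OSGIN1). Each symbol matched 1 Ensembl identifier, which gave 9 of the 60107 genes in the count table. All 9 passed the filter on low counts, among 12849 genes tested.

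The study grew Caco-2 cells with and without Faecalibacterium prausnitzii, a strictly anaerobic gut bacterium, to ask how HIF1α takes part in the response of the epithelium. In the HoxBan system the bacteria grow in a tube of anaerobic agar medium and a coverslip of epithelial cells lies on top under aerated medium, and cells were kept there for 18 h. The study used 3 lines, each in HoxBan coculture with F. prausnitzii, in HoxBan monoculture without bacteria and in a culture labelled 2D. Neither the labels nor the paper describe the vessel, medium or duration of 2D. These were cl.21 (1 HIF1A knock-out clone made with CRISPR/Cas9), e.v. (Cas9 with an empty vector) and WT (wild-type), with 3 libraries in each of the 9 groups except WT 2D, which had 4. The cl.21 and e.v. lines therefore share the Cas9 cassette that WT cells lack, and whatever sets cl.21 apart could belong to the clone. HoxBan monoculture may differ from 2D in the vessel, the agar medium and the oxygen supply at once, and these cannot be told apart. The labels do not tell whether the 3 or 4 libraries of a group are separate cultures, and p-values then measure only the spread between these libraries, which may be technical. Single WT libraries from HoxBan medium with inulin or mucin, without and with stool, enter no comparison.

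NRF2, the protein of NFE2L2, is a transcription factor that cells hold back under resting conditions. KEAP1 binds NRF2 and hands it to the ubiquitin ligase built on CUL3, so that NRF2 is degraded. Oxidants and electrophiles modify cysteines of KEAP1, NRF2 then escapes, pairs with a small MAF protein and binds antioxidant response elements near its target genes. The pathway is thus set mainly at the protein level, which RNA does not show. In the gut epithelium it is known for protection against reactive oxygen and dietary electrophiles.

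Libraries held 4144373 to 6686797 counts of QuantSeq 3′ reads, which come from the ends of transcripts. The unit of level is CPM, the count per 1000000 counts of a library, corrected with TMM factors, and it is a share of the RNA of a library. Fewer cells that express a gene and less of its RNA per cell cannot be told apart. The share of counts in the 37 mitochondrial genes ran from 4.49% to 23.6%. It covered 12.2 to 23.6% in cl.21 coculture, 7.91 to 17.6% in cl.21 monoculture and 4.49 to 15.3% in cl.21 2D, with like ranges in e.v. and WT. Epithelial markers were high throughout (EPCAM from 1080 to 2140 CPM, VIL1 from 241 to 380 CPM), whereas CDX1 did not exceed 0.266 CPM and KRT20 did not exceed 14.5 CPM. Among defining genes of other cell types, PTPRC, DCN, VWF and CD3E did not exceed 0.460 CPM in any of these libraries. CD14, CD68, PECAM1, COL1A1 and COL3A1 were detected, none of them above 41.45 CPM (COL1A1 in cl.21 monoculture). HIF1A RNA was 84.9 to 210.1 CPM in cl.21, 147 to 355 CPM in e.v. and 129 to 215 CPM in WT, but 3′ reads lie outside the edited site, so this level does not test the knock-out.

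Antioxidant response elements were looked for first, since they are what the 7 target genes are known to share. RefSeq start-site windows (GRCh38.p14, 250 bases before and 50 after a start) were at hand for 8 of the 9 genes, in 11 windows. The motif searched was TGACNNNGC on both strands, the 9 letters at the heart of the element. It occurred in 4 of the 11 windows, belonging to 3 genes (GCLM, TXNRD1 and KEAP1), against 13.3% of all 35116 windows of the same length. A match describes the letters only, and nothing here measures binding. To show where the motif lies, sequence upstream of the start is printed for GCLM (chr1:93909456-93909550, minus strand, ending with the motif 26 bases before the start, of which the last base is in a GENCODE 29 transcript) and for the first TXNRD1 start (chr12:104215659-104215778, plus strand), with motif bases in capitals.
GCLM upstream: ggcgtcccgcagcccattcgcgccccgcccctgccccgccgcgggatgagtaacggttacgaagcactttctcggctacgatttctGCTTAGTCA
TXNRD1 upstream, first start: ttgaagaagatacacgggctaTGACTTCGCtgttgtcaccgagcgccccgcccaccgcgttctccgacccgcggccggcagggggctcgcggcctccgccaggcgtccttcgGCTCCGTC
The TXNRD1 stretch holds a motif 99 to 91 bases before the start, and ends with the first 8 bases of another one that reaches the start site. Motifs at the second TXNRD1 start (chr12:104286923-104286945, plus strand) and at the second KEAP1 start (chr19:10502810-10502832 and chr19:10502787-10502809, minus strand) lie in sequence that GENCODE 29 places in untranslated exons, and are shown with 7 bases on each side.
TXNRD1 second start: gatttctGCTTTGTCAttctgac
KEAP1 second start, upstream site: tttattgTGACACGGCgggcgcc
KEAP1 second start, downstream site: cggctctGCTTAGTCAtggtgac
The site at the second TXNRD1 start and the GCLM site carry the same 7 bases before the motif, and the GCLM site and the downstream KEAP1 site carry the same motif letters. In the windows of NFE2L2, NQO1, GCLC, SRXN1 and OSGIN1 these letters were not found. Sequence farther from the starts was not searched, so this does not show that these genes lack the element.

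The question of the first comparison is how the pathway differs between HoxBan monoculture, without bacteria, and the culture labelled 2D. In HoxBan monoculture NFE2L2 RNA was higher in all 3 lines, KEAP1 was lower in cl.21 and e.v., and TXNRD1 and GCLC were higher in cl.21 and e.v. Of the others, SRXN1 passed the test in cl.21, while NQO1, GCLM, HMOX1 and OSGIN1 did not pass it in any line. In edgeR's quasi-likelihood test with Benjamini-Hochberg adjustment (threshold 0.05), 4 genes passed as higher and 1 as lower in cl.21, 3 as higher and 1 as lower in e.v., and 1 as higher in WT. Among all genes tested, 20.1% passed in cl.21 (10.1% higher, 10% lower), 21.6% in e.v. (10.3% higher, 11.3% lower) and 14.8% in WT (6.19% higher, 8.59% lower), so the WT count of 1 in 9 is close to that background. The median log2 fold change of the 9 genes was 0.75 in cl.21, 0.56 in e.v. and 0.48 in WT, against -0.02, -0.01 and 0.01 over all genes.

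NFE2L2 (ENSG00000116044, chr2:177227595-177392697, minus strand, GRCh38 with GENCODE 29) encodes NRF2 itself. It stood at 304, 228 and 301 CPM in cl.21 monoculture, against 156, 145 and 161 CPM in cl.21 2D. The e.v. libraries had 248, 330 and 343 CPM in monoculture, against 182, 195 and 192 CPM in 2D. In WT cells the values were 176, 245 and 325 CPM in monoculture, against 160, 139, 141 and 143 CPM in 2D. No monoculture library of a line reached down to the 2D libraries of that line, and the lowest of each monoculture group was the library with the least mitochondrial RNA of that group. The log2 fold change was 0.85 ± 0.19 in cl.21 (SE, edgeR adjusted p = 0.00221), 0.68 ± 0.19 in e.v. (adjusted p = 0.0109) and 0.75 ± 0.18 in WT (adjusted p = 0.00445). Without library 29 the WT value was 0.50 (adjusted p = 0.0837), and without library 15 the e.v. value was 0.62 (adjusted p = 0.0532).

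KEAP1 (ENSG00000079999, chr19:10486120-10503741, minus strand), the sensor that marks NRF2 for degradation, moved the other way. It had 17.0, 36.6 and 14.6 CPM in cl.21 monoculture, against 30.0, 38.3 and 46.0 CPM in cl.21 2D. In e.v. cells it had 28.3, 16.7 and 15.1 CPM in monoculture, against 40.2, 35.6 and 38.7 CPM in 2D. In WT cells it had 32.7, 23.6 and 24.0 CPM in monoculture, against 36.5, 35.4, 29.6 and 40.5 CPM in 2D. The groups were apart in e.v. and overlapped in cl.21 and WT through a single high monoculture library in each, again the one lowest in mitochondrial share. The log2 fold change was -0.77 ± 0.26 in cl.21 (SE, edgeR adjusted p = 0.0356), -0.94 ± 0.26 in e.v. (adjusted p = 0.0109) and -0.42 ± 0.24 in WT (adjusted p = 0.264). The cl.21 call was lost without library 2 (-0.78, adjusted p = 0.0752), 4 (-0.60, 0.177), 24 (-0.54, 0.206) or 31 (-0.60, 0.16), and the e.v. call without library 15 (-0.83, 0.0655) or 25 (-0.78, 0.0632).

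Glutathione synthesis starts with glutamate-cysteine ligase, whose catalytic subunit is GCLC (ENSG00000001084) and whose modifier subunit is GCLM (ENSG00000023909). GCLC had 50.6, 79.1 and 43.7 CPM in cl.21 monoculture, against 29.4, 34.2 and 37.5 CPM in cl.21 2D, and it had 55.9, 42.9 and 49.3 CPM in e.v. monoculture, against 29.4, 34.0 and 30.2 CPM in e.v. 2D. The groups did not overlap in these lines, and the log2 fold changes were 0.77 ± 0.23 (SE, edgeR adjusted p = 0.0173) in cl.21 and 0.64 ± 0.23 (adjusted p = 0.045) in e.v. In WT monoculture 1 of the 3 libraries, at 27.8 CPM, lay below all 4 WT 2D libraries, and the change of 0.38 ± 0.21 did not pass (adjusted p = 0.248). The e.v. call of GCLC was lost whichever of the 6 libraries was left out (adjusted p from 0.0593 to 0.13), and the cl.21 call was lost without library 1, 2 or 7 (0.0812, 0.0566 and 0.141).

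GCLM behaved less evenly within groups. It reached 103 CPM in 1 cl.21 monoculture library, against 34.2 and 30.8 CPM in the other two, while the cl.21 2D libraries had 33.8 to 37.5 CPM. The e.v. monoculture libraries had 62.4, 30.3 and 32.8 CPM, against 25.2 to 33.0 CPM in e.v. 2D, and WT monoculture had 57.8, 23.8 and 40.9 CPM, against 24.0 to 29.8 CPM in WT 2D. The high library of each line was once more the one lowest in mitochondrial share. The log2 fold changes were 0.65 (95% interval -0.12 to 1.42) in cl.21, 0.56 (-0.23 to 1.35) in e.v. and 0.59 (-0.14 to 1.32) in WT, and none passed.

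TXNRD1 (ENSG00000198431, chr12:104215779-104350305, plus strand), cytosolic thioredoxin reductase, uses NADPH to keep thioredoxin reduced. It had 173, 300 and 150 CPM in cl.21 monoculture, against 114, 125 and 126 CPM in cl.21 2D. In e.v. cells the levels were 227, 168 and 248 CPM in monoculture, against 115, 143 and 102 CPM in 2D. In WT cells they were 155, 94.4 and 171 CPM in monoculture, against 95.6, 110, 105 and 98.6 CPM in 2D. All monoculture libraries of cl.21 and e.v. exceeded those of 2D, whereas 1 WT monoculture library was the lowest of the 7 WT libraries. The log2 fold change was 0.76 ± 0.24 in cl.21 (SE, edgeR adjusted p = 0.0237), 0.82 ± 0.24 in e.v. (adjusted p = 0.014) and 0.44 ± 0.22 in WT (adjusted p = 0.195). The cl.21 call was lost without library 1 (edgeR adjusted p = 0.0826), 2 (0.0669) or 7 (log2 fold change 0.42, 0.227), and the e.v. call without library 23 (0.0503), 25 (0.0617) or 32 (0.0736).

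SRXN1 (ENSG00000271303), sulfiredoxin, repairs over-oxidised peroxiredoxins and is here a gene of few reads, with 6 to 41 counts in a library. It overlaps AL121758.1 on the same strand, which held 0 counts. It had 4.98, 6.94 and 4.69 CPM in cl.21 monoculture, against 1.37, 2.61 and 3.35 CPM in cl.21 2D. The groups did not overlap in cl.21 or in e.v. (4.63 to 7.67 CPM in monoculture, against 3.17 to 3.44 CPM in 2D), and overlapped in WT (2.36 to 7.45 CPM in monoculture, against 1.74 to 3.31 CPM in 2D). The log2 fold change was 1.16 ± 0.37 in cl.21 (SE, edgeR adjusted p = 0.0282), 0.90 ± 0.37 in e.v. (adjusted p = 0.0819) and 0.90 ± 0.36 in WT (adjusted p = 0.0961). The cl.21 call was lost without library 1, 2, 4 or 7 (adjusted p 0.145, 0.0715, 0.052 and 0.0934), and WT passed without library 19 (1.18, 0.0393).

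Of the remaining targets, NQO1 (ENSG00000181019), a quinone reductase widely used as a readout of NRF2, did not differ detectably. Its log2 fold change was 0.05 in cl.21 (95% interval -0.41 to 0.51), 0.04 in e.v. (-0.42 to 0.50) and 0.14 in WT (-0.29 to 0.57), so increases of the size seen for TXNRD1 in e.v. (0.82) lie outside all 3 intervals. HMOX1 (ENSG00000100292), heme oxygenase 1, breaks heme down to biliverdin, iron and carbon monoxide. It had 11.90, 24.8 and 12.0 CPM in cl.21 monoculture, against 9.74, 11.86 and 11.6 CPM in cl.21 2D, and 16.7 to 18.4 CPM in e.v. monoculture, against 10.5 to 14.5 CPM in e.v. 2D. These groups did not overlap, yet the log2 fold changes of 0.53 (-0.16 to 1.22) and 0.43 (-0.26 to 1.12) did not pass, nor did that of 0.48 (-0.17 to 1.12) in WT. OSGIN1 (ENSG00000140961), a growth regulator induced by oxidative stress, held 2 to 18 counts in a library and its intervals in the 3 lines spanned -0.54 to 2.03.

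Counting genes whose monoculture and 2D libraries did not overlap gave 6 of 9 in cl.21, 6 of 9 in e.v. and 1 of 9 in WT, beside 38.4%, 37.5% and 25.9% of all genes. Mitochondrial shares differed along with the groups, at a mean of 12.1% in monoculture and 8.69% in 2D for cl.21, 15.2% and 9.47% for e.v., and 11.1% and 7.60% for WT. With the mitochondrial share as a covariate, NFE2L2 kept its call in the 3 lines, and SRXN1 passed in e.v. (1.08, edgeR adjusted p = 0.0254) and WT (0.97, 0.043) as well. The 3 monoculture libraries lowest in that share also had the highest KEAP1, GCLC and SRXN1 and the lowest NFE2L2 of their groups. That of cl.21 also had the highest TXNRD1 of its group. Leaving these libraries out, chosen after the data were seen, therefore moves these genes (TXNRD1 in cl.21) in a direction set beforehand. Without these libraries KEAP1 passed in WT too (-0.60, adjusted p = 0.0379), while GCLC (0.50, 0.107), TXNRD1 (0.42, 0.222) and SRXN1 (0.99, 0.0502) lost their calls in cl.21 and GCLC lost its call in e.v. (0.55, 0.076). Without the 3 2D libraries highest in that share, the same 3 genes lost their calls in cl.21 (adjusted p 0.0981, 0.0952 and 0.156) and GCLC lost its call in e.v. (0.0872). The epithelial transcription factor CDX2 was lower in monoculture than in 2D in cl.21 (-0.92, adjusted p = 0.00788) and e.v. (-0.83, 0.0154), and the part of cell state or of mitochondrial share in the changes above was not tested.

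**Figure D1:**
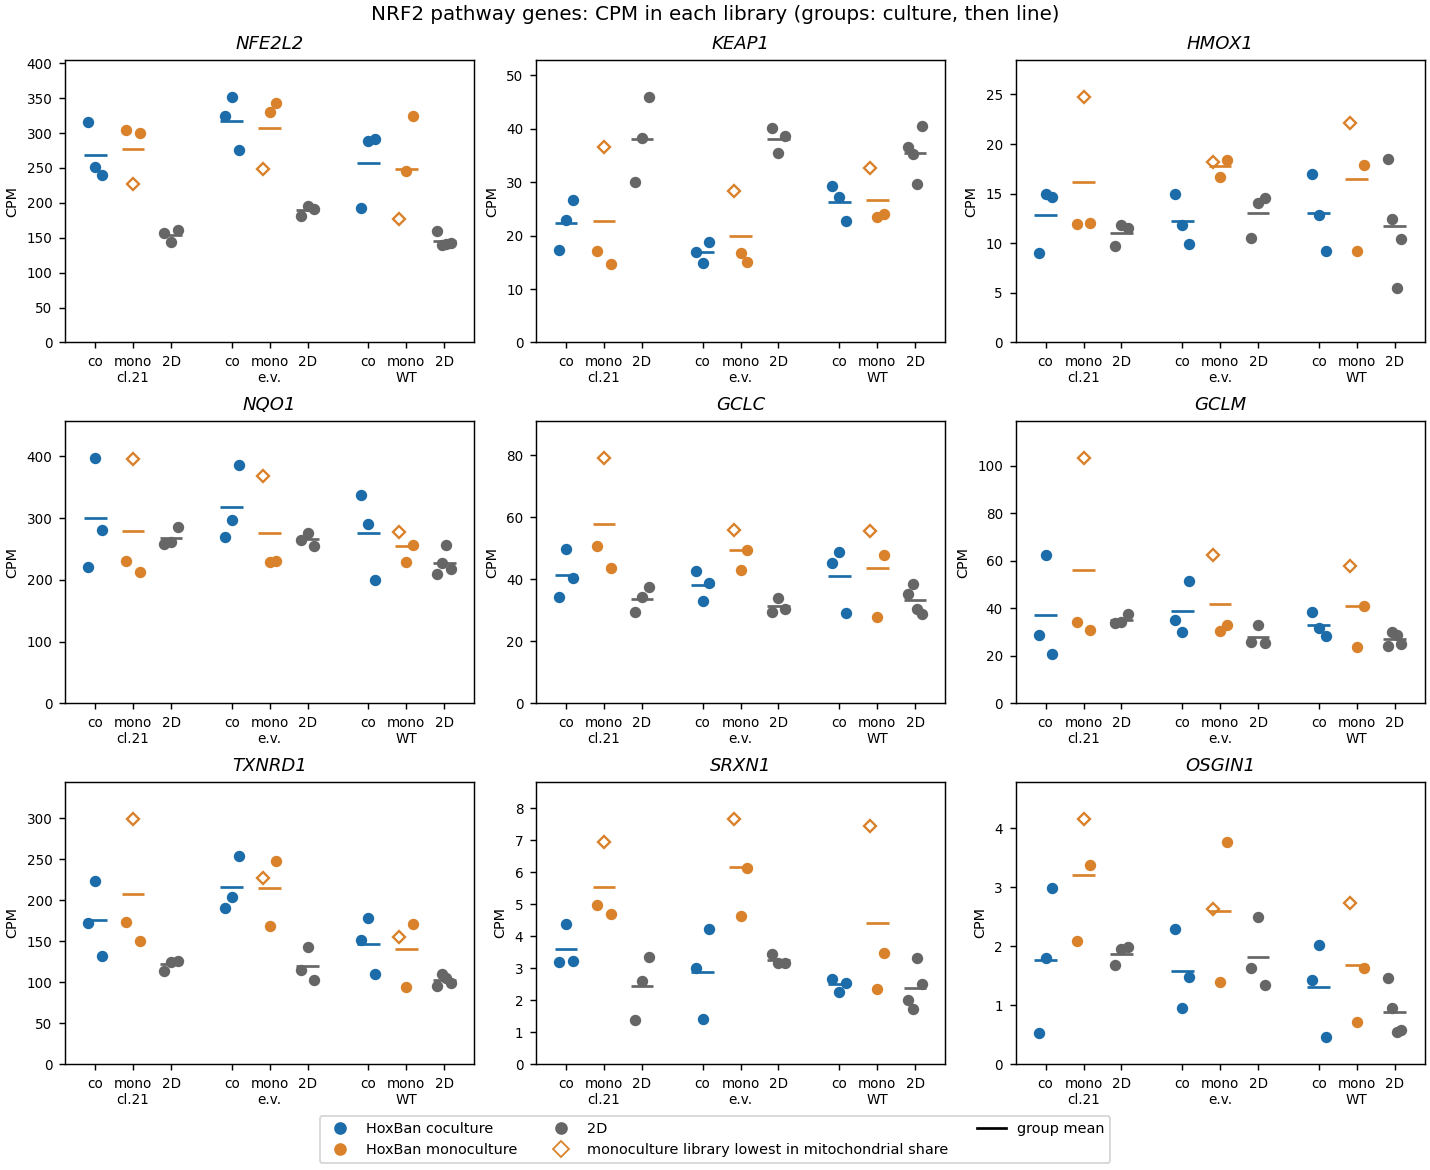
CPM of the 9 genes in each of the 28 libraries (1 panel a gene, vertical axis from 0), with the 3 cultures of cl.21, then e.v., then WT along the horizontal axis. Points are libraries, horizontal lines are group means, and open diamonds mark the monoculture library with the lowest mitochondrial share of each line. The diamonds are the highest KEAP1, NQO1, GCLC, GCLM and SRXN1 values of their monoculture groups and the lowest NFE2L2 values.

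**Figure D2:**
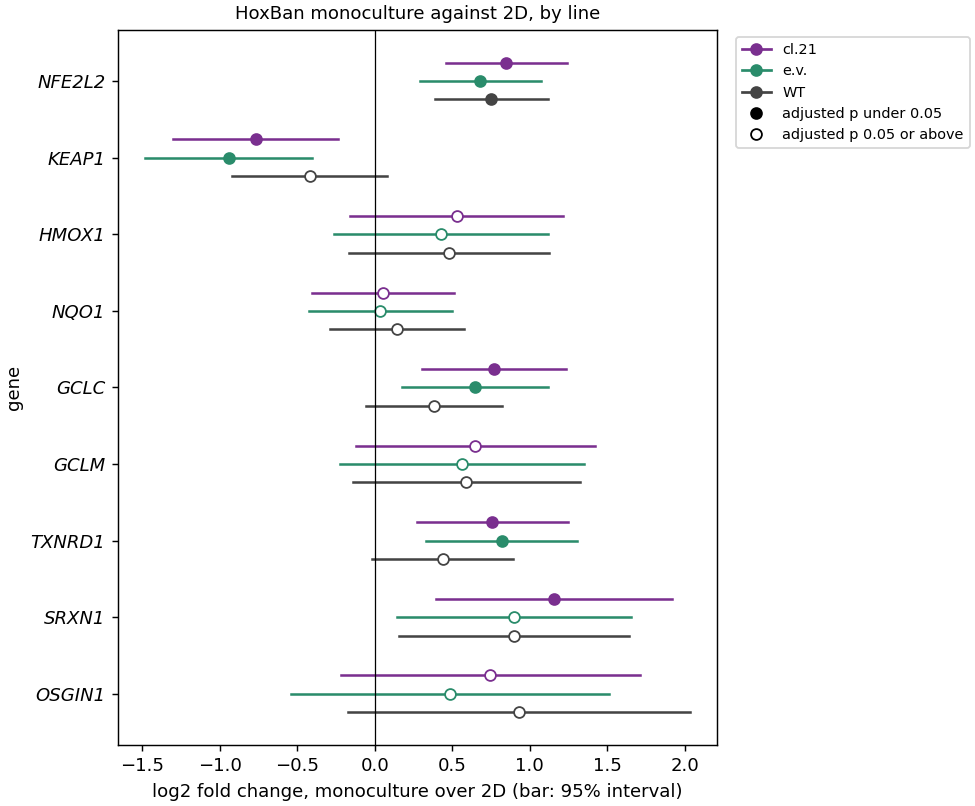
Log2 fold change of HoxBan monoculture over 2D for each gene and line, with bars for the 95% interval and filled points where the edgeR adjusted p was under 0.05. NFE2L2 is filled in all 3 lines, KEAP1, GCLC and TXNRD1 are filled in cl.21 and e.v., and the 3 NQO1 points lie between 0.04 and 0.14.

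Whether the lines differed in this change was tested as a difference of differences. No gene of the 12849 passed in cl.21 against e.v., e.v. against WT or cl.21 against WT with edgeR's quasi-likelihood test, and at an unadjusted p under 0.05 there were 180, 439 and 531 genes, none of them among the 9. For KEAP1 the difference was 0.17 (95% interval -0.58 to 0.93) between cl.21 and e.v., -0.52 (-1.25 to 0.21) between e.v. and WT and -0.35 (-1.07 to 0.38) between cl.21 and WT. For NFE2L2 the 3 differences lay between -0.07 and 0.17. A call in cl.21 and e.v. without one in WT is therefore not shown to be a difference between lines.

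Because no difference between lines was called, the mean of the 3 lines was added after the per-line values were seen. There NFE2L2 was higher by 0.76 ± 0.11 (SE, log2, edgeR adjusted p = 2.2e-06), KEAP1 lower at -0.71 ± 0.15 (adjusted p = 0.000299), and TXNRD1 (0.67 ± 0.13, 0.000191), GCLC (0.60 ± 0.13, 0.000457) and SRXN1 (0.98 ± 0.21, 0.000447) were higher. GCLM (0.60 ± 0.21, 0.0245), HMOX1 (0.48 ± 0.19, 0.0423) and OSGIN1 (0.72 ± 0.29, 0.0455) were higher with adjusted p nearer the threshold, and NQO1 gave 0.08 (95% interval -0.18 to 0.34). This made 7 genes higher and 1 lower, 8 of 9, where 44.6% of all genes passed (21.4% higher, 23.3% lower). Markers called on this mean were CDX2 (-0.78, edgeR adjusted p = 4.25e-05), CD14 (-0.54, 0.0297) and COL1A1 (0.41, 0.03), 3 of 12 tested, and their part was not tested. Leaving out the 3 monoculture libraries lowest in mitochondrial share reduced the genes called higher to 4 and took GCLM to 0.10 (adjusted p = 0.671), HMOX1 to 0.24 (0.327) and OSGIN1 to 0.47 (0.268). In the same setting the change of NFE2L2 was 0.91, that of KEAP1 was -1.04 and that of TXNRD1 was 0.51. The 3 libraries had the highest KEAP1 and GCLM and the lowest NFE2L2 of their monoculture groups. The direction in which these 3 genes moved was thus set by the choice of libraries. Library 7 also had the highest TXNRD1, HMOX1 and OSGIN1 of cl.21 monoculture, and library 16 the highest HMOX1 and OSGIN1 of WT monoculture. The falls of TXNRD1, HMOX1 and OSGIN1 were therefore set in part by that choice as well. With 1 library left out at a time, GCLM lost its call without library 7 (0.35, adjusted p = 0.131), 11 (0.46, 0.0802) or 16 (0.48, 0.0745), HMOX1 without any of 13 libraries (adjusted p up to 0.138 without library 7) and OSGIN1 without any of 14 (up to 0.168 without library 16).

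The machinery around NRF2 was read from a list of 14 regulators and partners, 13 of them tested. In monoculture against 2D, 3 rose and 2 fell in cl.21, 1 rose and 3 fell in e.v., and 1 rose and 3 fell in WT, beside 20.1%, 21.6% and 14.8% of all genes called in either direction. CUL3, the scaffold of the ligase that KEAP1 recruits, fell in all lines. It averaged 27.0 ± 5.3 CPM in cl.21 monoculture, against 81.1 ± 5.7 CPM in cl.21 2D, with 23.6 ± 9.7 CPM in e.v. monoculture, against 83.6 ± 6.0 CPM in e.v. 2D, and 25.0 ± 8.0 CPM in WT monoculture, against 73.5 ± 4.8 CPM in WT 2D (SD, n = 3 each and 4 in WT 2D). The groups did not approach each other, as the highest HoxBan monoculture library had 34.7 CPM and the lowest 2D library 68.2 CPM. The log2 fold changes were -1.60 ± 0.25 (SE, edgeR adjusted p = 5.76e-05) in cl.21, -1.84 ± 0.25 (1.31e-05) in e.v. and -1.57 ± 0.24 (7.46e-05) in WT.

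BTRC encodes the receptor of another ligase that targets NRF2 after phosphorylation by GSK3B. It fell in the 3 lines, by 1.19, 1.38 and 0.85 on the log2 scale in cl.21, e.v. and WT (edgeR adjusted p = 6.63e-05, 1.65e-05 and 0.0021). GSK3B itself fell in e.v. (-0.54, adjusted p = 0.0174) and WT (-0.50, 0.0266) and was not called in cl.21. MAFF, a small MAF protein that pairs with NRF2, averaged 28.7 ± 5.4 CPM in cl.21 monoculture, against 3.40 ± 1.01 CPM in cl.21 2D, and 23.1 ± 7.7 CPM in e.v. monoculture, against 2.97 ± 0.18 CPM in e.v. 2D (SD, n = 3 each). In WT cells it averaged 27.6 ± 10.9 CPM in monoculture, against 8.81 ± 6.00 CPM in 2D, where the 4 libraries spread from 3.47 to 17.2 CPM. MAFF rose by 3.06, 2.93 and 1.63 on the log2 scale in cl.21, e.v. and WT (adjusted p = 3.6e-05, 9.14e-05 and 0.00506). BACH1, a repressor that competes with NRF2 for its elements, rose in cl.21 (0.72, adjusted p = 0.0248), as did the small MAF gene MAFK (0.88, 0.0483). Both also rose on the mean of the 3 lines (0.54, edgeR adjusted p = 0.00107, and 0.50, 0.0267), where 44.6% of all genes passed. Their rise is therefore not shown to be particular to cl.21. The median of the list was 0.05, 0.21 and -0.07 in cl.21, e.v. and WT, and its members moved in both directions.

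Genes next to the pathway were read from further lists, in comparisons where 20.1%, 21.6% and 14.8% of all genes passed in cl.21, e.v. and WT. Of 32 genes of glutathione, thioredoxin and peroxiredoxin metabolism, 2 rose and 1 fell in cl.21, 2 rose in e.v. and 2 rose in WT. SLC3A2, the heavy chain of the cystine importer, was the one that rose in each (1.06, 0.94 and 0.81 on the log2 scale in cl.21, e.v. and WT, edgeR adjusted p = 0.00119, 0.00329 and 0.00753), reaching 197 ± 54 CPM in cl.21 monoculture, against 94.1 ± 18.9 CPM in cl.21 2D (SD, n = 3 each). Besides it, glutathione reductase GSR rose (0.59, adjusted p = 0.0237) and PRDX4, a peroxiredoxin of the endoplasmic reticulum, fell (-0.50, 0.0425) in cl.21, GGCT of glutathione turnover rose in e.v. (0.49, 0.00912), and the glutathione peroxidase family member GPX8 rose in WT (1.04, 0.0135). None of 7 genes of NADPH supply and none of 3 superoxide dismutase and catalase genes passed in any line. Of 20 further detoxification enzymes and exporters known as NRF2 targets, 1 passed, the quinone reductase NQO2, which fell in cl.21 (-0.72, 0.00972). Of 7 genes of heme breakdown and iron storage, FTH1, the ferritin heavy chain, rose in WT (0.55, 0.00592), and of 10 heat shock genes the cochaperone DNAJB1 fell in WT (-0.68, 0.00209).

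More of these genes were called on the mean of the 3 lines, as were 44.6% of all genes. Of 32 glutathione, thioredoxin and peroxiredoxin genes 11 rose and 1 fell, with a list median of 0.20 against -0.01 over all genes. SLC3A2 (0.93 ± 0.12, SE, edgeR adjusted p = 9.27e-07), GSR (0.46 ± 0.10, 0.000758), GGCT (0.30 ± 0.08, 0.00218) and the glutathione transferase GSTK1 (0.38 ± 0.10, 0.0041) had the smallest p. Of 7 genes of heme breakdown and iron storage 4 rose, FTH1 (0.34), the ferritin light chain FTL (0.33), the heme transporter SLC48A1 (0.49) and heme oxygenase 2, HMOX2 (0.31). Of 10 heat shock genes none rose and 4 fell, DNAJB1 (-0.42), HSPE1 (-0.56), BAG3 (-0.28) and HSPA1A (-0.44, whose near-identical copy HSPA1B makes it uncertain). In detoxification UGDH, which makes UDP-glucuronate, rose (0.36) while NQO2 (-0.34) and the epoxide hydrolase EPHX1 (-0.54) fell, and in NADPH supply transketolase TKT rose (0.38).

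**Figure D3:**
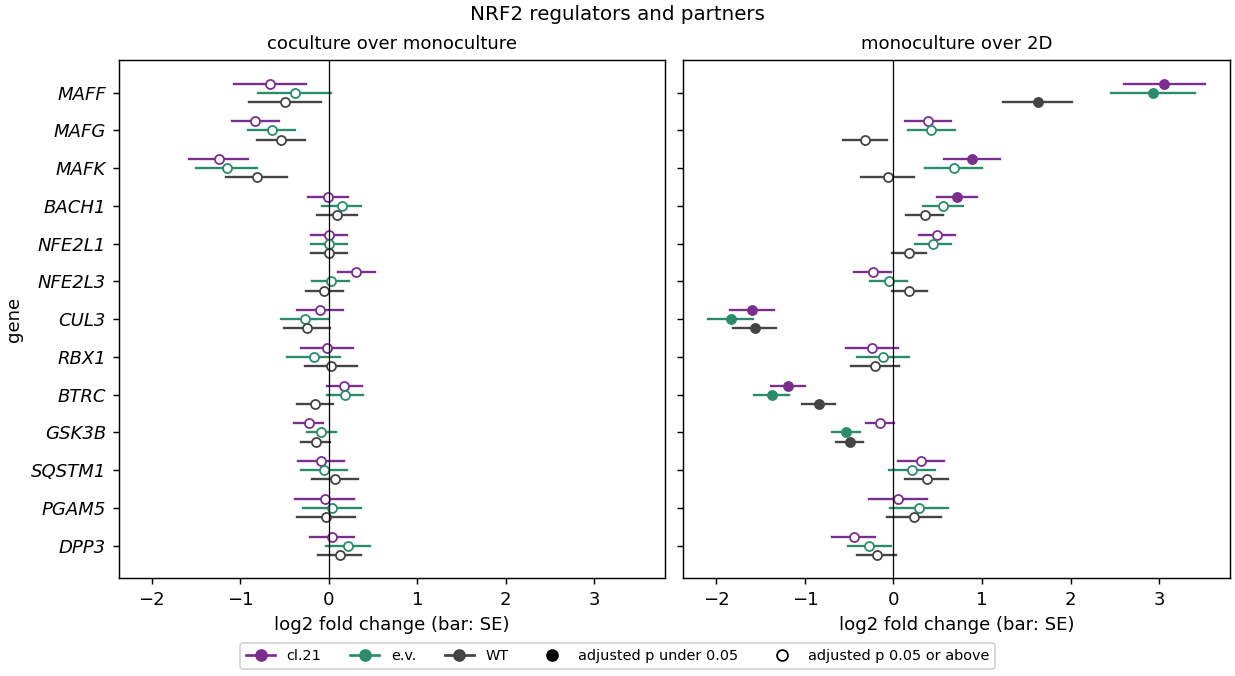
Log2 fold change of 13 regulators and partners of NRF2, coculture over monoculture on the left and monoculture over 2D on the right, with bars for the SE and filled points where the edgeR adjusted p was under 0.05. On the right CUL3 and BTRC lie left of 0 and MAFF right of 0 in all 3 lines, and on the left no point is filled.

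The second comparison asks what F. prausnitzii adds within HoxBan. In coculture against monoculture none of the 9 genes passed in cl.21, e.v. or WT, and none of the 12849 genes did either, so the background was 0% in each line. The edgeR quasi-likelihood test gave 908, 791 and 555 genes at an unadjusted p under 0.05, with 0, 1 and 1 of the 9 genes among them. DESeq2 called 4, 0 and 0 genes, and edgeR's exact test 4, 5 and 2. For NFE2L2 the log2 fold change was -0.01 (95% interval -0.40 to 0.38) in cl.21, 0.06 (-0.33 to 0.45) in e.v. and 0.06 (-0.33 to 0.45) in WT, so the increases seen in monoculture over 2D lie outside these intervals. KEAP1 gave 0.03 (-0.52 to 0.58), -0.23 (-0.80 to 0.33) and -0.01 (-0.55 to 0.52) in cl.21, e.v. and WT, and NQO1 gave 0.14 (-0.32 to 0.60), 0.22 (-0.24 to 0.68) and 0.13 (-0.33 to 0.59).

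Among the 9 genes SRXN1 had the lowest unadjusted p in e.v., in WT and on the mean of lines, and GCLC had it in cl.21 (-0.44, edgeR unadjusted p = 0.0672, adjusted p = 0.714). It had 3.20, 4.39 and 3.23 CPM in cl.21 coculture, against 4.98, 6.94 and 4.69 CPM in cl.21 monoculture. The e.v. libraries had 2.99, 1.42 and 4.21 CPM in coculture, against 7.67, 4.63 and 6.13 CPM in monoculture. WT coculture had 2.66, 2.27 and 2.55 CPM, against 7.45, 2.36 and 3.46 CPM in WT monoculture. The groups did not overlap in cl.21 and e.v., and in WT 1 monoculture library lay within the coculture range. The log2 fold changes were -0.57 ± 0.38 (SE, edgeR unadjusted p = 0.146) in cl.21, -1.08 ± 0.39 (unadjusted p = 0.00975, adjusted p = 0.704) in e.v. and -0.84 ± 0.40 (unadjusted p = 0.0462, adjusted p = 1) in WT. The mean of the 3 lines was -0.83 ± 0.23 with an adjusted p of 0.0507, on a background of 1.99% of genes called. That p lay under 0.05 with upper-quartile factors (0.0457), without the filter (0.0268), with the mitochondrial share as covariate (0.0343) and in DESeq2 (0.024), and also without library 14 (0.0345), 19 (0.0394), 28 (0.0428) or 29 (0.0434). Without any other of the 18 libraries it did not pass, at an edgeR adjusted p of up to 0.136.

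None of the other targets passed, and they pointed both ways. NQO1 gave positive values in the 3 lines and 0.16 (95% interval -0.10 to 0.43) on the mean of lines, and TXNRD1 gave -0.20, 0.03 and 0.08 in cl.21, e.v. and WT. HMOX1, GCLC, GCLM and OSGIN1 had values below 0 in each line. HMOX1 in e.v. had 15.0, 11.9 and 9.90 CPM in coculture, against 18.2, 16.7 and 18.4 CPM in monoculture, and GCLC in e.v. had 42.6, 33.0 and 38.6 CPM in coculture, against 55.9, 42.9 and 49.3 CPM in monoculture. These 2 genes and SRXN1 did not overlap in e.v., where 7.81% of all genes did not, and in cl.21 only SRXN1 did not (11.2% of all genes), in WT none (7.11%). On the mean of the lines GCLC gave -0.29 (95% interval -0.57 to -0.02, edgeR adjusted p = 0.228), HMOX1 -0.38 (-0.78 to 0.03, 0.32) and OSGIN1 -0.62 (-1.26 to 0.02, 0.285). The median over the 9 genes was -0.27, -0.23 and -0.09 in cl.21, e.v. and WT, against -0.02, -0.01 and 0.00 over all genes. No gene of the 9 differed between cl.21 and e.v. in its response to coculture, by edgeR, with 169 of all genes at an unadjusted p under 0.05 and 0 after adjustment. In that test NFE2L2 gave -0.07 (-0.62 to 0.48) and SRXN1 0.51 (-0.61 to 1.64).

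Among the neighbouring lists, no gene passed in a single line. On the mean of the lines, 2 of 13 regulators fell, the small MAF genes MAFK (-1.07 ± 0.20, SE, edgeR adjusted p = 0.00684) and MAFG (-0.67 ± 0.15, 0.0261). MAFK averaged 8.20 ± 2.96 CPM in cl.21 coculture, against 19.7 ± 6.7 CPM in cl.21 monoculture, 7.46 ± 3.41 CPM in e.v. coculture, against 16.9 ± 6.3 CPM in e.v. monoculture, and 7.63 ± 3.03 CPM in WT coculture, against 13.5 ± 2.6 CPM in WT monoculture (SD, n = 3 each). Of 20 detoxification genes 1, the carboxylesterase CES1, rose (1.21 ± 0.27, adjusted p = 0.0228), and 1 of 10 heat shock genes, the mitochondrial chaperonin HSPD1, rose (0.50 ± 0.13, 0.0469). The monoculture libraries are shared by this comparison and the one against 2D, so a high monoculture level enters both.

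**Figure D4:**
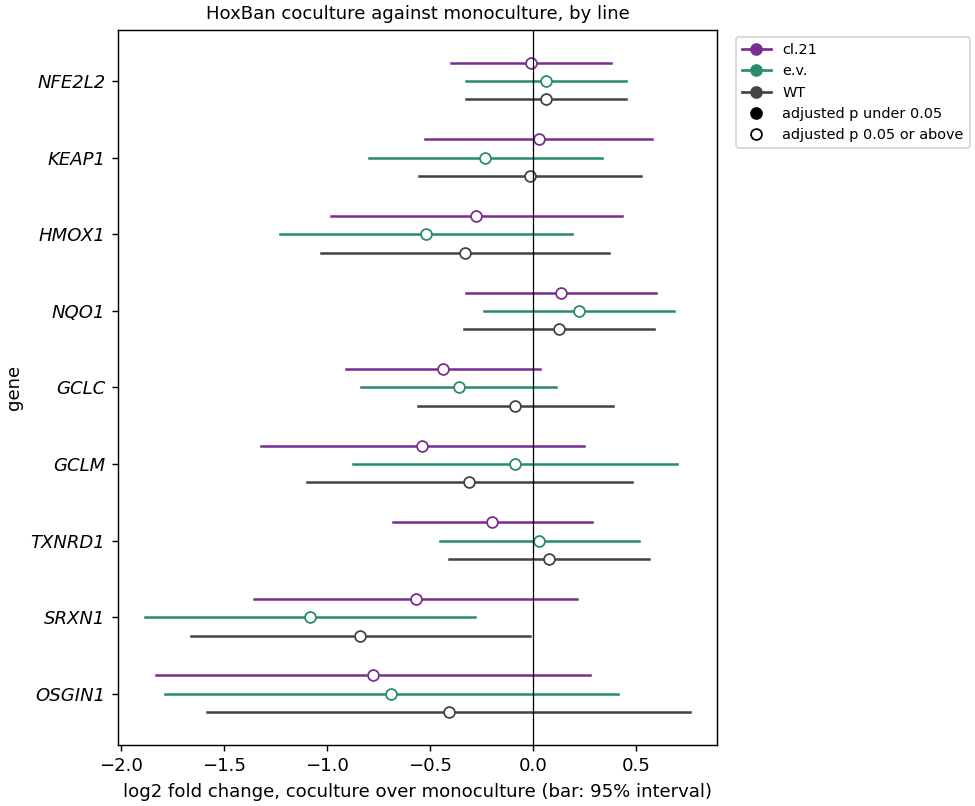
Log2 fold change of HoxBan coculture over monoculture for each gene and line, with bars for the 95% interval. All points are open, as no edgeR adjusted p was under 0.05, and the SRXN1 points lie at -0.57 in cl.21, -1.08 in e.v. and -0.84 in WT.

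Coculture was also set against 2D, a comparison added after the data were seen that shares its 2D libraries with the first. NFE2L2 was again higher in all lines, at 0.84 in cl.21 (edgeR adjusted p = 0.00219), 0.74 in e.v. (0.00403) and 0.81 in WT (0.00152). Coculture libraries had 316, 252 and 240 CPM in cl.21, 324, 352 and 276 CPM in e.v. and 192, 289 and 291 CPM in WT, all above the 2D libraries of their line given earlier. KEAP1 was lower in cl.21 (-0.74, adjusted p = 0.0389) and e.v. (-1.17, 0.00154), with 17.3, 23.0 and 26.6 CPM in cl.21 coculture and 17.0, 15.0 and 18.8 CPM in e.v. coculture. WT coculture had 29.2, 27.2 and 22.7 CPM of KEAP1, all below the 4 WT 2D libraries, and the change of -0.44 did not pass (adjusted p = 0.196). Coculture and 2D libraries did not overlap for 3 of 9 genes in cl.21, 3 of 9 in e.v. and 2 of 9 in WT. Of all genes, 40.9%, 49.4% and 31.2% did not overlap in these comparisons, so such a separation does not single out the 9 genes. TXNRD1 was higher in e.v. (0.85, 0.00784), where its 3 coculture libraries had 191, 205 and 254 CPM, and not called in cl.21 (0.56, 0.0849) or WT (0.51, 0.0876). The e.v. call of TXNRD1 was lost without library 22 (0.0508), while it passed in cl.21 without library 30 (0.0445) and in WT without library 28 (0.0316). SRXN1, called in cl.21 monoculture, gave 0.59 (95% interval -0.24 to 1.41) in cl.21, -0.19 (-1.01 to 0.64) in e.v. and 0.06 (-0.76 to 0.88) in WT. This made 2 of 9 genes called in cl.21, 3 of 9 in e.v. and 1 of 9 in WT, beside 24.8%, 31.2% and 25.3% of all genes, so the counts lie below that background in cl.21 and WT and near it in e.v. The KEAP1 call in cl.21 was lost without library 2, 17, 21 or 31 (adjusted p 0.0761, 0.147, 0.0925 and 0.165) and with the mitochondrial share as covariate (-0.41, 0.14). With that covariate TXNRD1 passed in cl.21 (0.64, adjusted p = 0.045) and WT (0.60, 0.0422), and NQO1 passed in WT (0.48, 0.04). CDX2 was the 1 of 7 tested epithelial markers that passed in this comparison, and it was lower in cl.21 (-1.16, adjusted p = 0.00124), e.v. (-1.56, 4.08e-05) and WT (-0.94, 0.00412). Its part in these changes was not tested.

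The third question is whether loss of HIF1A or the engineering itself moved the pathway. In cl.21 against e.v., none of the 9 genes passed in coculture, monoculture or 2D, where 1.17%, 1.12% and 1% of all genes did. None of the 9 reached an unadjusted p under 0.05 in edgeR, beside 10.8%, 10.4% and 8.73% of all genes. NFE2L2 gave -0.21 (95% interval -0.60 to 0.18) in coculture, -0.14 (-0.53 to 0.25) in monoculture and -0.31 (-0.70 to 0.08) in 2D. In 2D its 156, 145 and 161 CPM in cl.21 lay below the 182, 195 and 192 CPM in e.v. cells. GCLM lay above in 2D, at 33.8 to 37.5 CPM in cl.21, against 25.2 to 33.0 CPM in e.v. cells. This made 2 of 9 genes without overlap in 2D, beside 21.2% of all genes. TXNRD1 gave -0.28 (-0.76 to 0.21), -0.05 (-0.53 to 0.43) and 0.01 (-0.47 to 0.50) in coculture, monoculture and 2D, and NQO1 gave -0.06, 0.02 and 0.01. In the same order KEAP1 gave 0.42 (-0.14 to 0.99), 0.16 (-0.39 to 0.71) and -0.01 (-0.53 to 0.51). GCLC gave 0.15 (-0.33 to 0.63), 0.22 (-0.24 to 0.69) and 0.10 (-0.37 to 0.57). HMOX1, GCLM, SRXN1 and OSGIN1 had wider intervals, up to -0.98 to 1.38 for OSGIN1 in coculture, which leave room for changes of the size found between cultures. So do those of KEAP1 and TXNRD1 in coculture, GCLC in monoculture and NFE2L2 in 2D. On the mean of the 3 cultures NFE2L2 was -0.22 (-0.44 to 0.01, adjusted p = 0.247), and none of the 9 genes passed (8.75% of all genes did, and DESeq2 called 0 of the 9).

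Against WT, e.v. cells passed for none of the 9 genes within a culture (1.8% of all genes in coculture, 1.1% in monoculture and 1.28% in 2D). In these cultures 2, 1 and 1 of the 9 had an unadjusted p under 0.05 in edgeR, beside 15.8%, 14% and 11.1% of all genes. TXNRD1 had 191, 205 and 254 CPM in e.v. coculture, against 152, 179 and 110 CPM in WT coculture, and 227, 168 and 248 CPM in e.v. monoculture, against 155, 94.4 and 171 CPM in WT monoculture. Its log2 fold change was 0.56 ± 0.24 (SE, edgeR adjusted p = 0.237) in coculture, 0.61 ± 0.24 (0.226) in monoculture and 0.23 ± 0.22 (0.801) in 2D. On the mean of the 3 cultures, added after the data were seen, TXNRD1 was higher in e.v. (0.47 ± 0.13, adjusted p = 0.0187) and so was NFE2L2 (0.33 ± 0.11, 0.0394), 2 of 9 genes beside 14.6% of all genes. In the same comparison the epithelial marker CDX2 was lower in e.v. (-0.57, edgeR adjusted p = 0.00569), 1 of 7 tested epithelial markers to pass, and the fibroblast marker COL3A1 was higher (1.70, 0.00885), 1 of 3 tested fibroblast and endothelial markers, at group means of 6.93 to 8.43 CPM in e.v., against 2.11 to 2.54 CPM in WT. Their part in these differences was not tested. Without the 3 2D libraries highest in mitochondrial share neither gene of the 2 passed (TXNRD1 0.42, adjusted p = 0.0767, NFE2L2 0.32, 0.11). TXNRD1 also missed the threshold without e.v. 2D library 26 (0.42, 0.0512), and NFE2L2 missed it with upper-quartile factors (0.31, 0.0513) and without any 1 of 13 libraries (adjusted p from 0.0532 without library 23 to 0.098 without library 16). KEAP1 gave -0.32 (95% interval -0.63 to -0.01, adjusted p = 0.156). It passed without library 11 (-0.43, 0.0403) and without no other single library, where the edgeR adjusted p reached 0.305. In cl.21 against WT none of the 9 genes passed in a culture (0.926% of all genes in coculture, 2.28% in monoculture and 1.46% in 2D) or on the mean of cultures (14.4%), where TXNRD1 was 0.36 ± 0.13 (adjusted p = 0.0687) and OSGIN1 0.79 ± 0.31 (0.0841). TXNRD1 passed there without library 20 (0.0415), 24 (0.0415), 29 (0.0484) or 30 (0.0386), and OSGIN1 without library 16 (0.0485) or 17 (0.0423). With any other library left out neither passed, and the edgeR adjusted p reached 0.176 for TXNRD1 and 0.241 for OSGIN1. The WT libraries are shared by both of these comparisons. Unadjusted edgeR p values under 0.05 in cl.21 against WT numbered 0, 1 and 0 among the 9 genes in coculture, monoculture and 2D. Of all genes, 13%, 16.4% and 9.63% had such a p.

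A few genes of the neighbouring lists separated the lines. GPX8 had 10.0 ± 2.3, 9.31 ± 1.20 and 9.22 ± 0.65 CPM in e.v. coculture, monoculture and 2D and 7.29 ± 0.41, 6.54 ± 1.62 and 5.02 ± 1.21 CPM in those of cl.21, against 2.82 ± 1.10, 4.01 ± 0.95 and 1.92 ± 0.20 CPM in those of WT (SD, n = 3, 4 in WT 2D). It was called in e.v. against WT in each culture (1.83, 1.20 and 2.24 on the log2 scale, edgeR adjusted p = 0.000994, 0.0234 and 1.14e-05) and in cl.21 against WT in coculture (1.39, 0.0138) and 2D (1.36, 0.00455). ABCC4, a multidrug exporter, was higher in cl.21 than in e.v. in coculture (0.85, 0.0179) and monoculture (0.94, 0.00764), with 217 ± 18 CPM in cl.21 coculture, against 122 ± 26 CPM in e.v. coculture, and 205 ± 50 CPM in cl.21 monoculture, against 107 ± 31 CPM in e.v. monoculture (SD, n = 3 each). The aldose reductase AKR1B1 was lower in e.v. than in WT monoculture (-0.89, 0.032), and the carbonyl reductase CBR1 was lower in cl.21 than in WT monoculture (-0.63, 0.0284). With cultures averaged, 8.75% of all genes passed in cl.21 against e.v. and 14.4% in cl.21 against WT. Of the 32 glutathione, thioredoxin and peroxiredoxin genes 2 were higher and 1 lower than in e.v., and 4 were higher and 1 lower than in WT. The superoxide dismutase SOD1 was lower in cl.21 than in both other lines (-0.42, edgeR adjusted p = 0.00429 against e.v., and -0.41, 0.00365 against WT). In turn, cl.21 exceeded both in SLC7A11, the light chain of the cystine importer (0.63 over e.v., edgeR adjusted p = 0.0173, and 0.66 over WT, 0.00776), and in GPX2, the glutathione peroxidase of the gut epithelium (0.74, 0.0437, and 0.77, 0.0226). AKR1C2 was also higher (2.01, 0.00146, and 1.79, 0.00237), but it shares nearly all its sequence with other AKR1C genes and is uncertain.

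Over the 9 group means, NFE2L2, KEAP1, TXNRD1 and GCLC had all HoxBan means on one side of the 2D means. The share of all genes with such a split was not computed, so this is not shown to be a trait of the pathway. NFE2L2 averaged 269 ± 41, 277 ± 43 and 154 ± 9 CPM in cl.21 coculture, monoculture and 2D, 317 ± 38, 307 ± 51 and 189 ± 7 CPM in those of e.v., and 257 ± 57, 249 ± 74 and 146 ± 10 CPM in those of WT (SD, n = 3, 4 in WT 2D). Its 6 HoxBan means all lay above the 3 of 2D, and neighbours among the 6 were closer than their SD. KEAP1 had the reverse order, with all 3 means of 2D (35.5 to 38.2 CPM) above the 6 of HoxBan (16.9 to 26.8 CPM). TXNRD1 split in the same way as NFE2L2 (140 to 216 CPM in HoxBan, against 102 to 122 CPM in 2D), and so did GCLC (38.05 to 57.8 CPM in HoxBan, against 31.2 to 33.7 CPM in 2D). In NQO1, HMOX1, GCLM, SRXN1 and OSGIN1 the order mixed cultures.

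As a description over these 9 means of log2 CPM, which share a cell line, a kit and a run, Pearson's r was -0.94 between NFE2L2 and KEAP1, 0.92 between NFE2L2 and TXNRD1, -0.95 between KEAP1 and TXNRD1 and 0.93 between HMOX1 and SRXN1. The order within groups was a different one. Over the deviations of the 28 libraries from their group means, NFE2L2 and KEAP1 stayed opposed (-0.68), but KEAP1 ran with its own pathway's targets (0.74 with NQO1, 0.66 with GCLC, 0.65 with GCLM and 0.44 with TXNRD1) and NFE2L2 against them (-0.67, -0.44, -0.57 and -0.24 in that order). Among the 7 targets r was positive within groups for each pair, the highest being 0.84 for NQO1 with GCLM, 0.82 for GCLM with TXNRD1 and 0.80 for GCLC with TXNRD1 and the lowest 0.20 for HMOX1 with SRXN1, 0.33 for GCLM with OSGIN1 and 0.36 for SRXN1 with OSGIN1.

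These deviations went along with the mitochondrial share. Its deviation from the group mean had an r of -0.73 with KEAP1, 0.60 with NFE2L2, -0.60 with NQO1, -0.52 with HMOX1, -0.49 with GCLC, -0.44 with GCLM and -0.21 with TXNRD1 (28 libraries). In monoculture, libraries 7 of cl.21, 11 of e.v. and 16 of WT had the lowest shares (7.91%, 8.52% and 6.36%). In each line that library had the highest KEAP1, NQO1, GCLC, GCLM and SRXN1 and the lowest NFE2L2 of the 3 monoculture libraries. NQO1 stood there at 395 CPM in cl.21, 368 CPM in e.v. and 278 CPM in WT, while the other monoculture libraries of those lines had 213 to 256 CPM. In coculture, libraries 21 of cl.21, 22 of e.v. and 3 of WT had the lowest shares (12.2%, 10.5% and 7.79%). Each had the highest NQO1 (398, 386 and 337 CPM), GCLM and SRXN1 of its coculture group. KEAP1 was highest and NFE2L2 lowest there in e.v. and WT but not in cl.21, and GCLC was highest in cl.21 only. In 2D the libraries with the highest shares (library 1 of cl.21 at 15.3%, 26 of e.v. at 17.1% and 12 of WT at 14.1%) had the lowest KEAP1 of their groups, at 30.0, 35.6 and 29.6 CPM. They had no common place in NFE2L2. What the mitochondrial share stands for and its part in the results above were not tested.

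**Figure D5:**
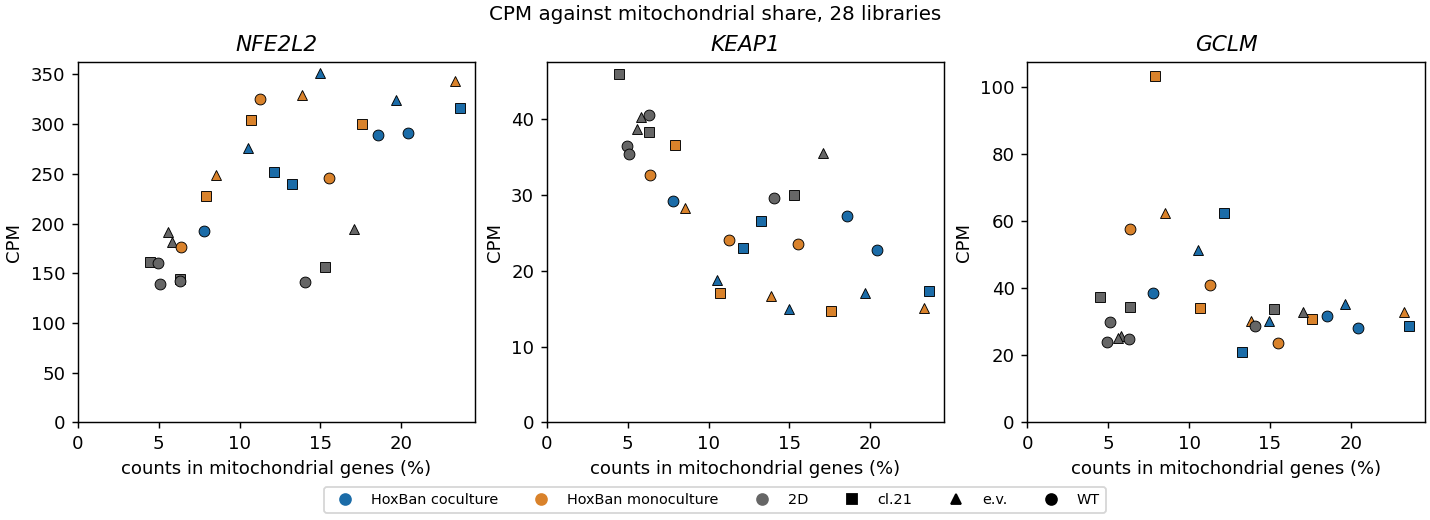
CPM of NFE2L2, KEAP1 and GCLM (vertical axes from 0) against the percent of counts in mitochondrial genes, with 1 point for each of 28 libraries, coloured by culture and shaped by line. Over deviations from group means KEAP1 falls (r = -0.73) and NFE2L2 climbs (r = 0.60) along the axis, and the 3 HoxBan monoculture libraries of lowest share hold GCLM at 57.8 to 103 CPM.

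The genes whose 9 group means were most like those of each member were drawn from 9951 others with a mean of at least 5 CPM (9952 for SRXN1 and OSGIN1). For NFE2L2 they included SLC7A6OS and PRPF39 (r = 0.99 for each), for KEAP1 MAEA, CYP27A1 and PLA2G12B (0.99 for each) and for TXNRD1 PPP1R15B, ERRFI1 and HID1 (0.99, 0.99 and 0.98). For GCLC they were USP32P1, LSM10 and AKAP17A (0.98 for each), for GCLM CHP1, KLF4 and KLHL15 (0.97, 0.94 and 0.93) and for NQO1 SNAP23, HSPA4 and PGD (0.98, 0.96 and 0.96). PGD, an enzyme of NADPH supply, was the only one of these that stood on a neighbouring list. HMOX1 was most like R3HDM2, MIR22HG and MED10 (0.98, 0.97 and 0.94), SRXN1 most like CAPN5, MED10 and USP36 (0.96, 0.96 and 0.94), and OSGIN1 most like ENSG00000259623, TRIM35 and CRNDE (0.92 for each). With 9 points and so many genes searched, values of this size are a description and no sign of shared control.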

How the data were processed

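RNA was measured in 32 libraries of Caco-2 cells made with a QuantSeq 3′ kit, of which 28 in 9 groups entered the tests. The authors deposited raw read counts per Ensembl gene, on GRCh38 per the labels. Which aligner, counter, annotation and strand setting were used is not stated in the sources used here, so reads of overlapping genes on opposite strands may not be told apart, and counts of near-identical copies (AKR1C genes, HSPA1A) are uncertain. Depth was 4144373 to 6686797 counts. Every column was mapped to a sample (0 were not), and 3576 of the 60107 identifiers had no name in the tables used, holding 0.0679% of the counts.

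Counts were fitted in R 4.3.3 with edgeR 4.0.16 (TMM factors, low-count filter by group, quasi-likelihood F test, two-sided, Benjamini-Hochberg over 12849 genes, threshold 0.05), in 1 fit of 9 groups with 19 residual degrees of freedom. The 95% intervals use the SE implied by the fold change and its F statistic. Among the 30 pairs of libraries within a group none was a duplicate, since the chi-square per gene was 4.04 to 65.1. Counts simulated for e.v. monoculture against 2D were used to test the script. Alternatives were DESeq2 1.42.0 and its size factors, upper-quartile factors, no filter, fits of the compared groups alone, the mitochondrial share as a covariate, and each library left out in turn. Added after the data were seen were coculture against 2D, the means over lines and over cultures (8 comparisons), edgeR's exact test, and leaving out together the 3 monoculture libraries lowest, or the 3 2D libraries highest, in mitochondrial share.

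The 9 genes and the neighbouring lists were chosen with earlier results of these data known. Named besides the 9 genes were up to 4 genes per list and comparison with the smallest adjusted p past the threshold, and for each of the 9 the 3 genes with the most similar group means (Pearson's r of log2 CPM, at least 5 CPM). Some genes that these rules or the marker lists name are not reported here. MAFK in cl.21 monoculture, CDX2 and the marker genes were named after their values were seen. Sequences come from RefSeq (GRCh38.p14), positions from GENCODE 29. HMOX1 is named only, with no window.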

Additional observations from a re-analysis of the deposited data

Results flagged for a closer look

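NFE2L2 in WT 2D had 1 library of 4 apart from the others, at 160 CPM against 139 to 143 CPM, a gap large for the range of its group. Chance sets apart about 1 in 20 groups of this size. In e.v. 2D and cl.21 2D the groups hold 3 libraries and were not examined in this way.

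The single WT libraries had several targets above the WT monoculture libraries, beyond their counting intervals, and have no replicate check. In HoxBan monoculture with inulin, TXNRD1 had 295 CPM, NQO1 321 CPM, GCLM 66.4 CPM and OSGIN1 5.02 CPM, against 94.4 to 171, 229 to 278, 23.8 to 57.8 and 0.707 to 2.73 CPM in WT monoculture. In monoculture with mucin TXNRD1 had 249 CPM and HMOX1 33.8 CPM, a gene at 9.18 to 22.2 CPM in WT monoculture. In stool coculture TXNRD1 had 255 CPM with inulin and 231 CPM with mucin, and NQO1 had 332 CPM with mucin. These 4 libraries had mitochondrial shares of 7.29% to 9.04%, near the 6.36% of the WT monoculture library with the highest NQO1 and GCLM. The part of that share in these levels was not tested.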

How the results depend on the processing

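Of 5160 values and counts recomputed under 10 other settings and with 28 libraries left out in turn, 4964 kept their direction and side of the threshold, and no called value changed sign. Counts below are of the 9 genes. The share of all genes called in the same setting is not set beside them, so a shift in a count does not single out these genes. With the mitochondrial share as covariate, genes called higher numbered 2 in WT monoculture over 2D (1 before), 3 in WT coculture over 2D (1) and 2 in cl.21 coculture over 2D (1), where genes called lower numbered 0 (1). With the compared groups alone, lower calls in cl.21 monoculture over 2D were 0 (1) and higher calls in cl.21 coculture over 2D were 2 (1). Without the 3 monoculture libraries lowest in mitochondrial share, higher calls were 1 in cl.21 (4) and 4 on the mean of lines (7), and lower calls were 1 in WT (0) and 1 in e.v. over WT (0). Without the 3 2D libraries highest in that share, higher calls were 1 in cl.21 monoculture over 2D (4) and 0 in e.v. over WT (2). E.v. over WT gave 1 with upper-quartile factors and with the compared groups alone, cl.21 over WT gave 1 with upper-quartile factors, no filter and the covariate (0), and the mean of coculture over monoculture gave 1 lower with upper-quartile factors, no filter, the covariate and DESeq2 (0). Leaving out 1 library at a time, monoculture over 2D gave 1 to 4 higher and 0 to 1 lower in cl.21, 1 to 2 higher and 0 to 1 lower in e.v., 0 to 2 higher in WT and 4 to 7 higher on the mean. Coculture over 2D gave 1 to 2 higher and 0 to 1 lower in cl.21 and 1 to 2 higher in e.v. and in WT. On the mean of cultures, e.v. over WT gave 0 to 2 higher and 0 to 1 lower and cl.21 over WT 0 to 1 higher, and coculture over monoculture gave 0 to 1 lower on the mean of lines. The causes were not tested, though fewer libraries also lower what a test can call. All genes called in coculture over monoculture, 0 in each line, became 30, 25 and 22 in cl.21, e.v. and WT without the filter and 14, 1 and 6 with the covariate. No paired analysis was possible because library numbers in the labels are unique and no groups share replicate numbers. Few counts of SRXN1 and OSGIN1 limit their precision.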

Other observations

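Not all genes were high in the single WT libraries. NFE2L2 stood at 238 CPM with inulin and 244 CPM with mucin in monoculture, and at 244 CPM with inulin and 216 CPM with mucin in stool coculture, all within the 176 to 325 CPM of WT monoculture. KEAP1 stood at 19.1 CPM (inulin), 20.9 CPM (mucin) and 18.0 CPM (stool with inulin), under the lowest WT monoculture library at 23.6 CPM, and at 26.5 CPM in stool with mucin. Exact Poisson intervals, which cover counting error only, end below 23.6 CPM for inulin (15.5 to 23.3 CPM) and stool with inulin (14.7 to 21.9 CPM) but not for mucin (16.9 to 25.6 CPM). SRXN1 had 9.85 CPM with inulin and 9.68 CPM with mucin in monoculture (51 and 43 counts), against 3.96 and 4.69 CPM in the stool cocultures with inulin and mucin (22 and 20 counts). CUL3 ran from 18.5 to 37.7 CPM in these 4 libraries, and MAFF from 14.8 to 18.4 CPM. With 1 library for each condition none of these values was tested.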
